A study of Homo sapiens with 12 samples.

Results

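The genes of the NF-kB transcription factor subunits and of their IkB-type inhibitors were examined in LM2 cells, a breast cancer cell line derived from MDA-MB-231 by selection for spread to the lung. Members were chosen by symbol and not by a cut on their values, though earlier results of these data were known. They were RELA, RELB, REL, NFKB1 and NFKB2 for the subunits, NFKBIA, NFKBIB and NFKBIE for the classical inhibitors, and NFKBIZ and BCL3 for the nuclear ones. Of the 10 listed genes, 9 had a row of their own among 24556 symbols, and all 9 were among the 11929 genes tested. NFKBIZ was present only in a merged locus, NFKBIZ-NXPE3, whose value is given but is not counted as NFKBIZ.

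The study compared 4 groups of 3 RNA-seq libraries: cells transduced with an EZH2 short hairpin RNA (shRNA) or with a scramble shRNA, and cells transfected with a ZRANB1 small interfering RNA (siRNA) or with a scramble siRNA. EZH2 is the histone H3 lysine 27 methyltransferase of Polycomb repressive complex 2, and ZRANB1 is a deubiquitinase. All groups were the same line, grown in DMEM with serum. The labels used here give neither the shRNA and siRNA sequences nor the time of exposure. Nor do they say that the 3 libraries of a group were separate cultures: p-values therefore measure the spread among these libraries alone, and that spread may be technical. The scramble controls differ from each other in delivery as well as in the RNA delivered, which cannot be told apart.

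NF-kB factors are dimers of RELA, RELB, REL and the DNA-binding products of NFKB1 and NFKB2, whose long precursors also act as inhibitors. In resting cells the classical inhibitors hold dimers in the cytoplasm; the IkB kinase complex marks them for destruction after signals such as interleukin 1 or tumour necrosis factor, and freed dimers enter the nucleus. Several genes of the system, NFKBIA, NFKBIE, NFKB2, RELB and BCL3 among them, are themselves classical transcriptional targets of NF-kB, which gives the pathway its feedback. Basal NF-kB activity is a known trait of MDA-MB-231 cells.

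Levels are FPKM values, which scale fragment numbers to the length of the transcript and the size of the library. The 3 values of a group were sorted as text within each row, in 100% of the rows with 3 different values, and a column therefore does not follow a library. That order does not affect the mean, SD or test of a gene. EZH2 averaged 16.5 ± 0.681 FPKM with the EZH2 shRNA and 35.4 ± 1.07 FPKM with the scramble shRNA (SD, n = 3 each). In the libraries labelled ZRANB1 siRNA, ZRANB1 itself averaged 10.0 ± 1.31 FPKM, against 11.4 ± 0.795 FPKM with the scramble siRNA, and this was not called (adjusted p = 0.349 by limma), so a lower target transcript was not shown there. EZH2 averaged 30.4 ± 2.08 FPKM in those libraries, against 48.6 ± 2.1 FPKM with the scramble siRNA. The mesenchymal marker VIM and 4 other markers of the line were present in all groups, with summed means of 3328, 3580, 3450 and 3341 FPKM in the EZH2 shRNA, scramble shRNA, ZRANB1 siRNA and scramble siRNA groups. Of 8 leukocyte markers, the B cell marker MS4A1 was listed at 0 in all 12 values; the summed means in the same order of groups were 39.2, 39.2, 43.0 and 40.7 FPKM, of which CD68 made up at least 34.4 FPKM in each group. PTPRC, CD3E and ITGAM averaged at most 0.0224 FPKM in each group. CD68 averaged 40.2 FPKM with the scramble siRNA and 34.4 FPKM with the scramble shRNA, a called difference opposite to that of the members. CD14 moved with the members: its mean was 0.867 FPKM with the ZRANB1 siRNA and 0.243 FPKM with the scramble siRNA, a called rise, and 2.87 and 3.9 FPKM in the EZH2 shRNA and scramble shRNA groups. The 4 endothelial markers summed to 1.77, 2.06, 1.60 and 0.822 FPKM in the same order of groups. Of 6 luminal markers, PGR was listed at 0 in all 12 values, GATA3 averaged 4.87, 6.74, 4.80 and 3.70 FPKM and EPCAM 4.34, 3.53, 7.13 and 8.23 FPKM. GATA3 was called lower with the EZH2 shRNA and, like the members, in the scramble siRNA against the scramble shRNA group, where EPCAM was called higher. Of the line's own markers, CD44 moved with the members, at 261, 264, 206 and 118 FPKM, and was called in the ZRANB1 comparison and between the controls. EGFR, KRT18 and KRT8 went the other way between the controls, called higher in the scramble siRNA group. EGFR was also called higher with the EZH2 shRNA, at 31.3 FPKM against 19.7 FPKM with the scramble shRNA. VIM, at 2605, 2836, 2675 and 2573 FPKM, made up most of the line markers' summed means and was not called. The part of these markers' cells in the results was not tested.

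To show the regulatory letters beside the responses, the 250 bases before the RefSeq start of 7 measured members were read (build GRCh38.p14); RELB and NFKBIE were not matched. Capitals mark matches, on either strand, to the kB consensus, the usual description of NF-kB binding sites. Overlapping matches are merged into 1 run in capitals. NFKB2 is shown for the 2 of its alternative starts that carry a match. NFKBIB is shown because it carries a match but was not called in any comparison, and BCL3 and RELA as windows without a match. Of the windows not printed, that of REL carried a match. The other windows of NFKB2, NFKB1, NFKBIB and RELA carried none.
NFKBIA, chr14:35404750-35404999, minus strand: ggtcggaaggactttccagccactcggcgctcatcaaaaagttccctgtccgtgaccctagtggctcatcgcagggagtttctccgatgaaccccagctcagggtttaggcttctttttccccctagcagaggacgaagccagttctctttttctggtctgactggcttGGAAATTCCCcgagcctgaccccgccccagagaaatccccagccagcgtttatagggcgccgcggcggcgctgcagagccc
NFKB2, chr10:102394328-102394577, plus strand: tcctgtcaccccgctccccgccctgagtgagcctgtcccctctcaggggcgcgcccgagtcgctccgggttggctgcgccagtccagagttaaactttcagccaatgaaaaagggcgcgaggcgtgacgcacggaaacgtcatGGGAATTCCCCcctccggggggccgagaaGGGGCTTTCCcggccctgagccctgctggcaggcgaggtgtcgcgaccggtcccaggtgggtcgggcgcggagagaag
NFKB2, chr10:102395455-102395704, plus strand: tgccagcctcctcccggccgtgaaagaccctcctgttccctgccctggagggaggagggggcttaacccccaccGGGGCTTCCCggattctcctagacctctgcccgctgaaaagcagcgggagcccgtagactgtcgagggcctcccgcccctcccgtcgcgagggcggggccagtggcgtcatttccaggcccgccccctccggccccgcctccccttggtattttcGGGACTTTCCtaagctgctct
NFKB1, chr4:102501109-102501358, plus strand: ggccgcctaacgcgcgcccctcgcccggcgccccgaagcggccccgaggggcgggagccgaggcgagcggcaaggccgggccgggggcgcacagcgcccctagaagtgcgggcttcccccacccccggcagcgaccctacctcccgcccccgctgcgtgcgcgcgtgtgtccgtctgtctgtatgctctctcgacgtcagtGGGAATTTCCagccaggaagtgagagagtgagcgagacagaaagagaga
NFKBIB, chr19:38899719-38899968, plus strand: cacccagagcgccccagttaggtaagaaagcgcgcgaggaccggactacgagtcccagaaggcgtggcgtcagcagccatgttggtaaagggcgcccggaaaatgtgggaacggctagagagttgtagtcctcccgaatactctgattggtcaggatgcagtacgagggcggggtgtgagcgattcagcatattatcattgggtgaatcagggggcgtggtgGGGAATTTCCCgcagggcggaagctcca
BCL3, chr19:44748458-44748707, plus strand: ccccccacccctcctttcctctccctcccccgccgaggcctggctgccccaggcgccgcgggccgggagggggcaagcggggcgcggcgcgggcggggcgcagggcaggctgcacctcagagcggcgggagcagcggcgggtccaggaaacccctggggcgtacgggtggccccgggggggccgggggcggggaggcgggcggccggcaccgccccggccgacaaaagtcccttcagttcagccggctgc
RELA, chr11:65662917-65663166, minus strand: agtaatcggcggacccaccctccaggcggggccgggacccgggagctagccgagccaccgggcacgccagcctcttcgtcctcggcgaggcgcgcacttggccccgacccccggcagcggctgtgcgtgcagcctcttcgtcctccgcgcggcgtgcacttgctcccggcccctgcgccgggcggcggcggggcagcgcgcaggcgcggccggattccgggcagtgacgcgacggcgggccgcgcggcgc
The consensus was found in 6 of 12 windows of these members, against 9.96% of 35116 RefSeq windows of the same length. Counted by gene, with a match in any window of a gene, it was found in 5 of the 7 genes. No share by gene was computed for all genes, so that count has no background beside it. A looser form, GGG and CC with any 5 bases between them, was found in 11 of the 12 windows and in 54.4% of all windows. The NFKBIA match began 81 bases before its start and the NFKB1 match 49 bases before its start. A match is a description of letters and not of binding, and no match says only that these letters are not in the window.

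Across the 4 groups, the members fell into those that differed widely and those that differed little. NFKBIA, RELB, BCL3, NFKBIE and NFKB2 spanned 2.24, 1.95, 1.68, 1.66 and 1.30 on the log2(FPKM + 1) scale between their highest and lowest group mean. NFKB1, REL, RELA and NFKBIB spanned 0.73, 0.65, 0.46 and 0.24. The scramble siRNA group had the lowest mean of all 4 groups for 9 of 9 members, as it did for 36.3% of all tested genes.

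**Figure D1:**
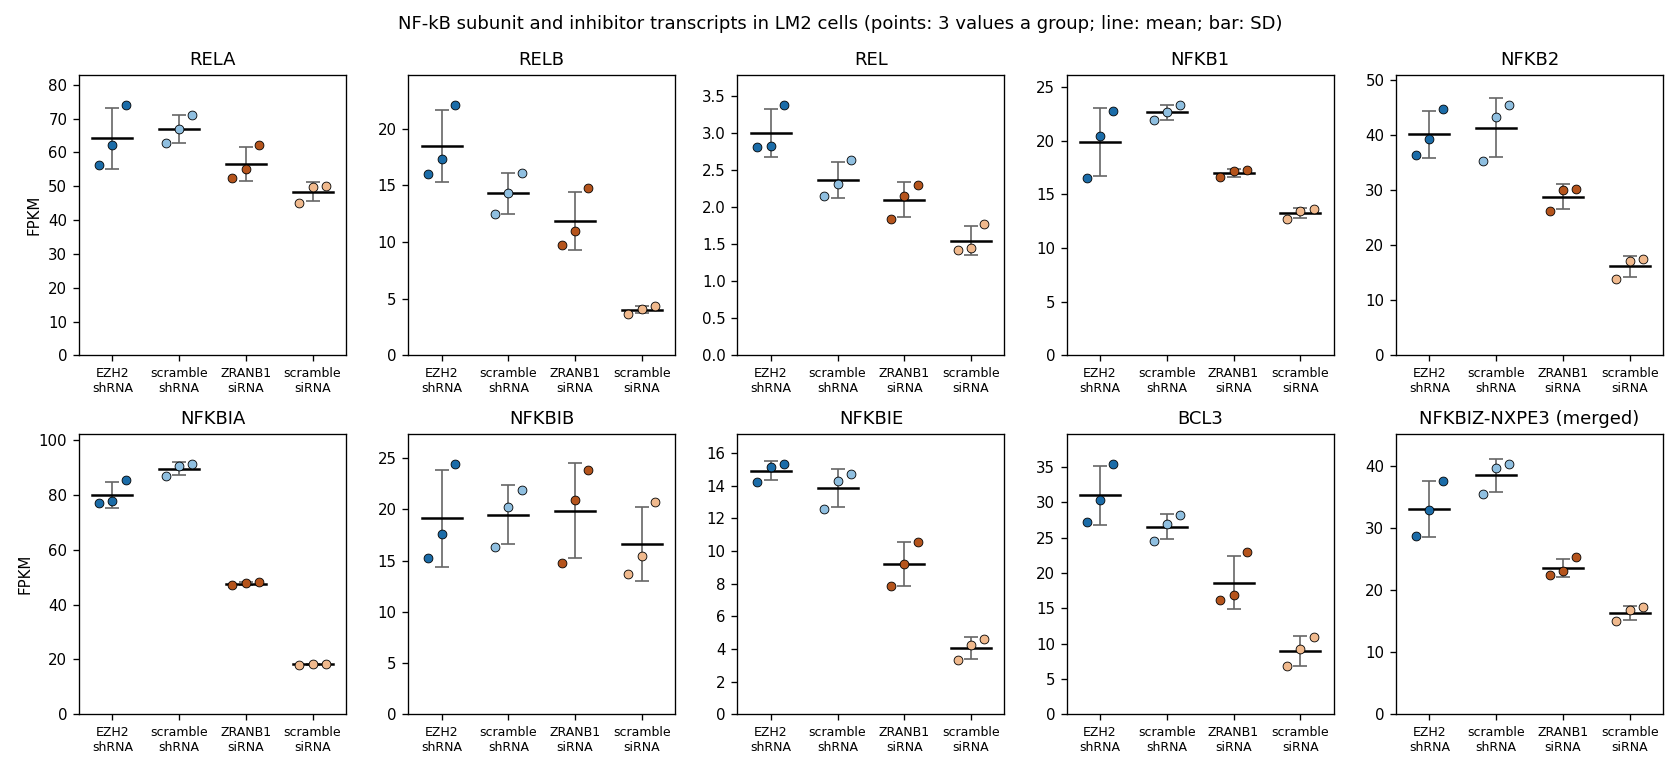
FPKM of each member, and of the merged locus of NFKBIZ and NXPE3, in the 4 groups. Points are the 3 values of a group, the line is their mean and the bar 1 SD; the scramble siRNA mean is the lowest in each panel, and for NFKBIA the groups do not overlap.

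The comparison of EZH2 shRNA with scramble shRNA addressed which transcripts differ in cells depleted of EZH2. By limma, 0 of 9 members passed the test, against 6.41% of all tested genes (3.39% higher and 3.03% lower), and 3 of the 9 had an unadjusted p below 0.05, as did 21.4% of all tested genes. In bulk RNA, fewer cells with a transcript and less of it per cell cannot be told apart. The median log2 fold change of the members was -0.038, against -0.014 for all tested genes. Those 3 members differed in sign: NFKBIA had a log2 fold change of -0.16 (adjusted p = 0.14), REL of 0.25 (adjusted p = 0.188) and RELB of 0.34 (adjusted p = 0.222), which leaving out 1 EZH2 shRNA value lowered to 0.21. Values did not overlap between the groups for NFKBIA and REL, 2 of 9 members, and for 22.1% of all tested genes.

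Among the subunits, RELA, the activating partner of the most common dimer, was the most abundant. It had 56.3, 62.2 and 74.1 FPKM with the EZH2 shRNA, against 62.7, 66.9 and 71.2 FPKM with the scramble shRNA. These ranges overlapped, and the log2 fold change of -0.066 had a 95% interval of -0.29 to 0.16. RELB, the partner of the noncanonical pathway, had 16.0, 17.4 and 22.1 FPKM with the EZH2 shRNA, against 12.5, 14.4 and 16.1 FPKM with the scramble shRNA. The lowest EZH2 shRNA value lay just under the highest control value. REL, the subunit best known from lymphocytes, was the scarcest member, at 2.81, 2.83 and 3.38 FPKM with the EZH2 shRNA, against 2.15, 2.32 and 2.63 FPKM with the scramble shRNA. Its groups did not overlap, yet the difference was not called. NFKB1, the source of p50, averaged 19.9 ± 3.16 FPKM with the EZH2 shRNA and 22.6 ± 0.716 FPKM with the scramble shRNA. NFKB2, the source of p52, averaged 40.1 ± 4.26 and 41.3 ± 5.33 FPKM in the EZH2 shRNA and scramble shRNA groups, and its 95% interval ran from -0.30 to 0.22.

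NFKBIA, which encodes the fast feedback inhibitor IkB alpha, had 77.0, 77.6 and 85.4 FPKM with the EZH2 shRNA, against 86.9, 90.4 and 91.4 FPKM with the scramble shRNA. The groups did not overlap, and the EZH2 shRNA mean was 89.3% of the control mean; the 95% interval of the log2 fold change was -0.29 to -0.032. NFKBIB (IkB beta) averaged 19.1 ± 4.77 FPKM and NFKBIE (IkB epsilon) 14.9 ± 0.598 FPKM with the EZH2 shRNA. The scramble shRNA means were 19.5 ± 2.86 FPKM for NFKBIB and 13.9 ± 1.14 FPKM for NFKBIE. BCL3, a nuclear IkB protein that works with p50 and p52 homodimers, averaged 31.0 ± 4.16 FPKM with the EZH2 shRNA and 26.6 ± 1.82 FPKM with the scramble shRNA (adjusted p = 0.519). The merged locus NFKBIZ-NXPE3 averaged 33.1 ± 4.48 FPKM with the EZH2 shRNA and 38.4 ± 2.63 FPKM with the scramble shRNA (adjusted p = 0.24). An adjusted p above the threshold does not show that these levels were the same in both groups.

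The comparison of ZRANB1 siRNA with scramble siRNA addressed the same for cells in which ZRANB1 was targeted. Here 6 of 9 members rose and 0 fell, against 16.6% of all tested genes called, 10.1% higher and 6.50% lower. The median log2 fold change of the members was 0.80, against -0.017 for all tested genes, and the change was above 0 for 9 of 9 members and 46.6% of all tested genes. The members that rose were NFKBIA, NFKBIE, RELB, BCL3, NFKB2 and NFKB1; RELA, REL and NFKBIB did not pass the test. An exact two-sided permutation test of 3 values against 3 has a smallest possible p of 0.1. That was its value for the 8 of 9 members whose groups did not overlap, as was the case for 36.4% of all tested genes, and for NFKBIB it was 0.4.

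NFKBIA had 47.1, 47.7 and 48.1 FPKM in the libraries labelled ZRANB1 siRNA, against 18.1, 18.1 and 18.3 FPKM with the scramble siRNA. The groups were far apart with little spread within either, and the mean was 2.62 times that of the control. On the log2 scale the fold change was 1.34 ± 0.059 (SE), with an adjusted p of 4.05e-08. NFKBIE had 7.88, 9.20 and 10.6 FPKM with the ZRANB1 siRNA, against 3.33, 4.23 and 4.60 FPKM with the scramble siRNA. All 3 values lay above the control range, and the log2 fold change was 1.02 ± 0.115 (SE, adjusted p = 1.10e-04). NFKBIB stood apart from the other 2 classical inhibitors, with 14.8, 21.0 and 23.9 FPKM against 13.7, 15.5 and 20.7 FPKM in the ZRANB1 siRNA and scramble siRNA groups. Its groups overlapped, its standard error of 0.21 was the largest among the members, and the 95% interval of its log2 fold change ran from -0.22 to 0.70.

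Of the subunits, RELB moved the most, with 9.78, 11.0 and 14.7 FPKM in the libraries labelled ZRANB1 siRNA, against 3.68, 4.12 and 4.32 FPKM with the scramble siRNA. Each value was above the control range, and the mean was 2.93 times that of the control (log2 fold change 1.33, SE 0.152, adjusted p = 1.11e-04). NFKB2 had 26.2, 30.0 and 30.2 FPKM with the ZRANB1 siRNA, against 13.9, 17.0 and 17.5 FPKM with the scramble siRNA. That was a log2 fold change of 0.80 with a standard error of 0.119 (adjusted p = 8.10e-04), with no overlap. RELB and NFKB2 encode the partners of the RELB-p52 dimer, the output of the noncanonical pathway.

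NFKB1 moved less, at 16.6, 17.2 and 17.2 FPKM against 12.7, 13.5 and 13.6 FPKM in the ZRANB1 siRNA and scramble siRNA groups. Its log2 fold change of 0.34 was called with an adjusted p of 0.0339, a call that was lost whenever 1 of the 6 values was left out and ran up to an adjusted p of 0.109 over the alternatives tried. RELA, at 52.6, 55.2 and 62.2 FPKM against 45.1, 49.9 and 50.0 FPKM, did not overlap between the ZRANB1 siRNA and scramble siRNA groups but was not called (log2 fold change 0.22, adjusted p = 0.177). REL averaged 2.1 ± 0.232 FPKM with the ZRANB1 siRNA and 1.55 ± 0.198 FPKM with the scramble siRNA (adjusted p = 0.0886). BCL3 rose, with 16.1, 16.8 and 22.9 FPKM with the ZRANB1 siRNA against 6.76, 9.28 and 10.9 FPKM with the scramble siRNA. This amounted to a log2 fold change of 0.98 ± 0.167 (SE, adjusted p = 0.00201). The merged locus NFKBIZ-NXPE3 also rose, by 0.50 on the log2 scale (adjusted p = 0.00551), with means of 23.5 ± 1.52 FPKM with the ZRANB1 siRNA and 16.3 ± 1.15 FPKM in its control.

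**Figure D2:**
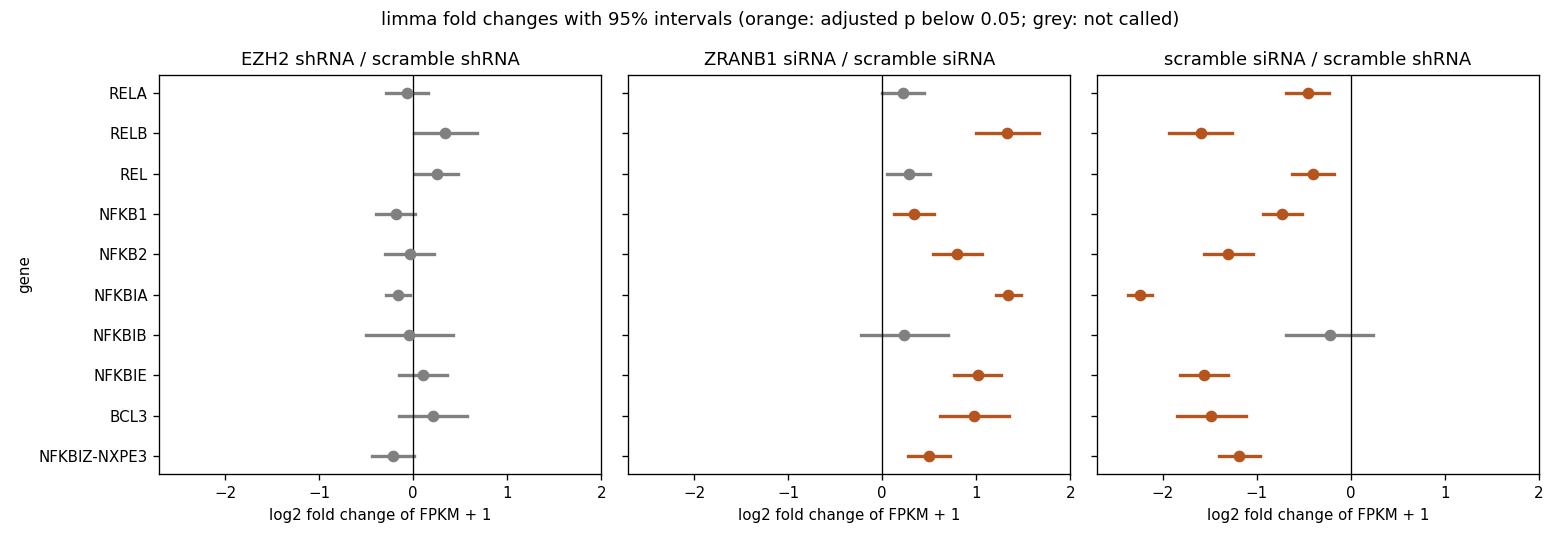
Log2 fold changes of FPKM + 1 with 95% intervals by limma for the members and the merged locus in 3 comparisons, orange where the adjusted p was below 0.05. No member was called with the EZH2 shRNA, 6 of 9 members were higher with the ZRANB1 siRNA, and 8 of 9 were lower in the scramble siRNA group than in the scramble shRNA group.

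The scramble siRNA control, against which these rises were measured, lay far below the scramble shRNA control. Comparing these 2 controls, 8 of 9 members fell in the scramble siRNA group and 0 rose, against 50.6% of all tested genes called and 25.1% called lower. The median log2 fold change was -1.30 for the members and 0.011 for all tested genes. NFKBIA was 20.3% of its scramble shRNA level (log2 fold change -2.24, SE 0.059, adjusted p = 2.29e-10), RELB 28.2%, NFKBIE 29.2%, BCL3 33.9% and NFKB2 39.1%. NFKB1 stood at 58.6%, REL at 65.4% and RELA at 72.2% of the scramble shRNA level. NFKBIB, at 85.4%, was the member that was not called (adjusted p = 0.393). This comparison and that of the ZRANB1 siRNA share the scramble siRNA values, so their opposite directions are not independent of each other.

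Levels in the libraries labelled ZRANB1 siRNA lay between those of the scramble siRNA and scramble shRNA groups, with the scramble shRNA higher, for 8 of 9 members and for 32.8% of all tested genes. Counted in FPKM from the scramble siRNA mean to the EZH2 shRNA mean, the ZRANB1 siRNA mean stood 47.7% of the way for NFKBIA, 47.5% for NFKBIE, 43.8% for BCL3, 52.7% for NFKB2, 54.1% for RELB, 56.4% for NFKB1, 52.4% for RELA and 38.0% for REL. NFKBIB, whose neighbouring groups all overlapped, had a ZRANB1 siRNA mean above both ends. EZH2 itself stood 56.8% of the way. For 1052 tested genes whose EZH2 shRNA and scramble siRNA means were at least 1 apart on the log2 scale, the median was 44.8%, with quartiles of 38.0% and 53.3%. Counted to the scramble shRNA mean instead, the ZRANB1 siRNA mean stood 41.3% of the way for NFKBIA, 52.6% for NFKBIE, 54.8% for BCL3, 50.2% for NFKB2 and 76.0% for RELB. It stood 40.0% of the way for NFKB1, 44.8% for RELA and 67.7% for REL, and again above both ends for NFKBIB. The median of 1097 genes at least 1 apart was 42.9% there, with quartiles of 31.1% and 54.7%, and EZH2 stood at 138%, outside the 2 ends. Set against these quartiles, NFKBIA, NFKBIE, NFKB2 and RELA lay within them at both ends, and RELB lay above them at both. The place of NFKB1, BCL3 and REL depended on the end chosen. With the scramble shRNA as the end, NFKB1 was within the quartiles and no longer above them. BCL3 was then just above and no longer within, and REL above and no longer just below. NFKB1, REL, RELA and NFKBIB spanned less than 1 over the 4 groups, and so are not themselves 1 apart at either end. This measure uses the values of the comparisons above and is a description.

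Ordered by mean, NFKBIA ran from scramble siRNA through ZRANB1 siRNA and EZH2 shRNA to scramble shRNA, with no overlap between neighbours. In NFKB2 the same order held, but EZH2 shRNA and scramble shRNA overlapped. RELB, NFKBIE and BCL3 were highest with the EZH2 shRNA, where the overlap with the scramble shRNA left the upper order undecided; for RELB the scramble shRNA values also overlapped those of the ZRANB1 siRNA. REL was highest with the EZH2 shRNA without overlap, and its scramble shRNA and ZRANB1 siRNA values overlapped. For RELA and NFKB1, the EZH2 shRNA values overlapped those of both neighbours in the order, scramble shRNA above and ZRANB1 siRNA below.

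FPKM is scaled to length, and levels of different genes are set side by side here as a description only. The annotation behind the lengths is not stated, and NFKB1, RELA, REL and BCL3 overlap other genes. Summed over the 5 subunits, the group means came to 146 FPKM with the EZH2 shRNA and 148 FPKM with the scramble shRNA, and to 116 FPKM with the ZRANB1 siRNA and 83.3 FPKM with the scramble siRNA. The 3 classical inhibitors summed to 114 and 123 FPKM in the EZH2 shRNA and scramble shRNA groups, and to 76.7 and 38.9 FPKM in the ZRANB1 siRNA and scramble siRNA groups. The ratio of summed inhibitors to summed subunits was 0.783 with the EZH2 shRNA, 0.833 with the scramble shRNA, 0.659 with the ZRANB1 siRNA and 0.466 with the scramble siRNA. NFKBIA made up 70.1% of the inhibitor sum with the EZH2 shRNA and 72.9% with the scramble shRNA. It made up 62.1% with the ZRANB1 siRNA and 46.7% with the scramble siRNA, where NFKBIB was nearly as abundant, at 42.8%. Within the subunits, RELA made up 44.1%, 45.4%, 48.7% and 58.0% in the EZH2 shRNA, scramble shRNA, ZRANB1 siRNA and scramble siRNA groups, and RELB 12.7%, 9.70%, 10.2% and 4.85%. These ratios are of group means and have no error, since values could not be joined by library.

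**Figure D3:**
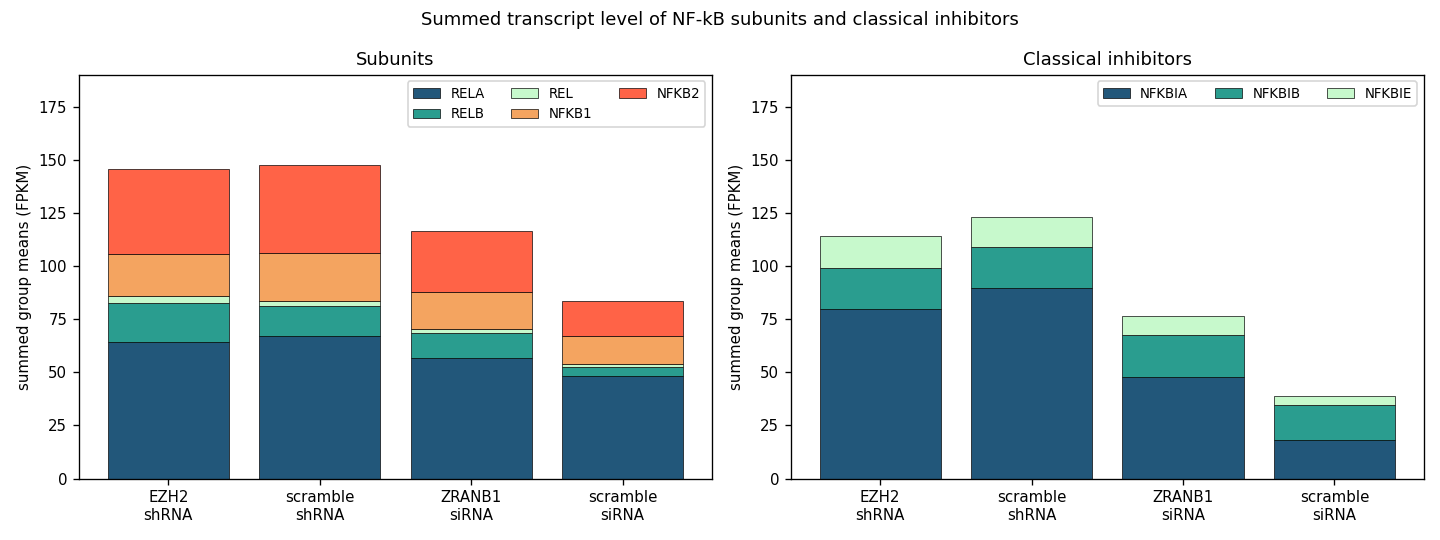
Group means in FPKM, summed over the 5 NF-kB subunits (left) and the 3 classical inhibitors (right), in the 4 groups. The inhibitor stack is 76.7 FPKM with the ZRANB1 siRNA and 38.9 FPKM with the scramble siRNA, a difference made up mostly by NFKBIA.

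Other genes of the pathway were taken from lists by role, chosen with earlier results of these data known. Their counts are given as higher and lower of those tested. Over all tested genes, 3.39% were higher and 3.03% lower with the EZH2 shRNA, and 10.1% higher and 6.50% lower with the ZRANB1 siRNA. Of the ligands, 7 of 9 in the table did not reach a mean of 1 FPKM, TNF, LTA and LTB included. Of the other 2, IL1B rose in both comparisons, at 620 ± 97.9 FPKM with the EZH2 shRNA against 435 ± 8.73 FPKM with the scramble shRNA, with an adjusted p of 0.0158. It averaged 340.2 ± 16.3 FPKM with the ZRANB1 siRNA, against 15.0 ± 0.912 FPKM with the scramble siRNA. The call of IL1B with the EZH2 shRNA was lost with the compared groups alone and on leaving out any of 3 of its 6 values, with adjusted p up to 0.126. IL1A rose in the ZRANB1 comparison, to 3.52 ± 0.353 FPKM with the ZRANB1 siRNA, against 0.0336 ± 0.0362 FPKM with the scramble siRNA.

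Receptors had 0 higher and 3 lower of 11 with the EZH2 shRNA (3.39% and 3.03% of all tested genes), and 3 higher and 1 lower with the ZRANB1 siRNA (10.1% and 6.50%). The interleukin 1 receptor gene IL1R1 fell with the EZH2 shRNA, at 1.53 ± 0.0831 FPKM against 2.47 ± 0.156 FPKM with the scramble shRNA, as did the tumour necrosis factor receptor gene TNFRSF1B, at 2.39 ± 0.131 against 4.08 ± 0.620 FPKM, and the RNA sensor gene TLR3, at 2.37 ± 0.533 against 3.60 ± 0.241 FPKM. In the ZRANB1 comparison the lipopolysaccharide receptor gene TLR4 rose, at 10.2 ± 1.35 FPKM against 2.68 ± 0.429 FPKM in the scramble siRNA control, and the interleukin 1 receptor partner gene IL1RAP rose, at 12.2 ± 1.31 against 6.91 ± 0.646 FPKM. IL1R1 rose there as well, with a mean of 1.04 ± 0.153 FPKM for the ZRANB1 siRNA and of 0.444 ± 0.0586 FPKM for the scramble siRNA. The 3 falls with the EZH2 shRNA were each lost without some single value, with adjusted p over all alternatives up to 0.0639 for IL1R1, 0.0808 for TNFRSF1B and 0.159 for TLR3.

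Adaptors and ubiquitin ligases between receptor and kinase had 4 higher and 0 lower of 24 with the EZH2 shRNA, against 3.39% and 3.03% of all tested genes, and 7 higher and 0 lower with the ZRANB1 siRNA, against 10.1% and 6.50%. IRAK2, a kinase-like partner of interleukin 1 and Toll-like receptors, rose in both, at 18.8 ± 0.458 FPKM with the EZH2 shRNA against 13.7 ± 0.711 FPKM with the scramble shRNA, and at 11.3 ± 0.257 FPKM with the ZRANB1 siRNA against 3.91 ± 0.379 FPKM with the scramble siRNA. TRAF3, which keeps the noncanonical kinase NIK low, rose with log2 fold changes of 0.40 in the EZH2 and 0.65 in the ZRANB1 comparison, and the scaffold gene CARD10 with 0.46 and 0.45. TRAF1, a known NF-kB target, rose in the ZRANB1 comparison by 1.35 on the log2 scale, or 2.62 with a pseudocount of 0.1, and had -0.25 with the EZH2 shRNA, which was not called. With the EZH2 shRNA, the calls of TRAF3, CARD10 and IRAK2 were lost with the compared groups alone (adjusted p = 0.126, 0.126 and 0.0569), and those of TRAF3 and CARD10 also without some single value. In the ZRANB1 comparison that of CARD10 was lost without some single value (0.0589).

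Kinases had 0 higher and 1 lower of 8 with the EZH2 shRNA, against 3.39% and 3.03% of all tested genes (6.41% called). With 8 genes, 1 call is too few to be read as more or fewer than that share. The gene called lower was MAP3K14, which encodes NIK, at 12.4 ± 1.82 FPKM with the EZH2 shRNA against 18.9 ± 1.26 FPKM with the scramble shRNA (log2 fold change -0.57, adjusted p = 0.00923). With the ZRANB1 siRNA 3 of 8 kinase genes were higher and 0 lower, against 10.1% and 6.50% of all tested genes: IKBKE, an IkB kinase-related kinase, at 8.45 ± 1.14 FPKM against 3.09 ± 0.345 FPKM in the scramble siRNA control, IKBKG, the regulatory subunit NEMO, at 20.2 ± 2.93 against 13.6 ± 0.650 FPKM, and MAP3K8, at 1.95 ± 0.390 against 1.11 ± 0.182 FPKM. The call of MAP3K14 was lost with the compared groups alone (adjusted p = 0.0821), and those of IKBKG and MAP3K8 without some single value (adjusted p up to 0.0666 and 0.126). The 5 genes of the ligase that marks IkB proteins for the proteasome had 0 higher and 0 lower in both comparisons, with median log2 fold changes of -0.063 and -0.014 for EZH2 and ZRANB1.

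Other negative regulators had 1 higher and 2 lower of 15 with the EZH2 shRNA, where 6.41% of all tested genes were called. With the ZRANB1 siRNA 5 were higher and 0 lower, where 16.6% of all tested genes were called. The 15 included NFKBID, an IkB family gene outside the members, which was not called in either comparison. TNFAIP3, which encodes the ubiquitin-editing enzyme A20, rose in both, with log2 fold changes of 1.06 and 1.96. ZC3H12A, which encodes a ribonuclease that destroys cytokine transcripts, fell with the EZH2 shRNA, at 27.4 ± 2.65 FPKM against 47.3 ± 5.63 FPKM with the scramble shRNA. It rose in the ZRANB1 comparison, at 14.1 ± 1.11 FPKM with the ZRANB1 siRNA against 1.81 ± 0.263 FPKM with the scramble siRNA. The A20-binding protein gene TNIP3 fell with the EZH2 shRNA as well, with a log2 fold change of -0.54, a call lost at a pseudocount of 0.1 and with the compared groups alone (adjusted p up to 0.1). Its relative TNIP1 rose in the ZRANB1 comparison, at 108 ± 12.4 FPKM with the ZRANB1 siRNA against 54.2 ± 4.39 FPKM with the scramble siRNA.

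Textbook targets outside the members had 4 higher and 1 lower of 21 with the EZH2 shRNA, against 3.39% and 3.03% of all tested genes. With the ZRANB1 siRNA 18 were higher and 1 lower, against 10.1% and 6.50%. The median log2 fold change was 0.033 in the EZH2 and 1.68 in the ZRANB1 comparison, and -2.50 for the scramble siRNA against the scramble shRNA, where 20 of 21 were lower, against 25.1% of all tested genes. With the EZH2 shRNA, CXCL8 and ICAM1 rose by 1.32 and 0.81 on the log2 scale, while the iron-binding lipocalin gene LCN2 fell by 1.31. In the ZRANB1 comparison, IL6, CXCL1 and CSF3, the targets with the smallest adjusted p, rose by 5.08, 4.85 and 3.97. CXCL8 had the largest rise of the targets there, by 5.49. ICAM1 rose there by 2.52 and LCN2, opposite to its fall with the EZH2 shRNA, by 0.98. Named after their values were seen, other genes among these calls were, with the EZH2 shRNA, IRAK1 among the adaptors and MMP9 and PTGS2 among the targets, all higher. With the ZRANB1 siRNA they were the receptor gene CD40 and the survival gene BCL2L1, both lower. Higher there were BIRC2, BIRC3 and MALT1 among the adaptors, and TNIP2 and TNIP3 among the negative regulators. Targets also higher with the ZRANB1 siRNA were BCL2A1, CCL20, CSF2, CXCL2, CXCL3, CXCL10, IER3, MMP9, PTGS2, SOD2, TNFAIP2 and VCAM1.

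**Figure D4:**
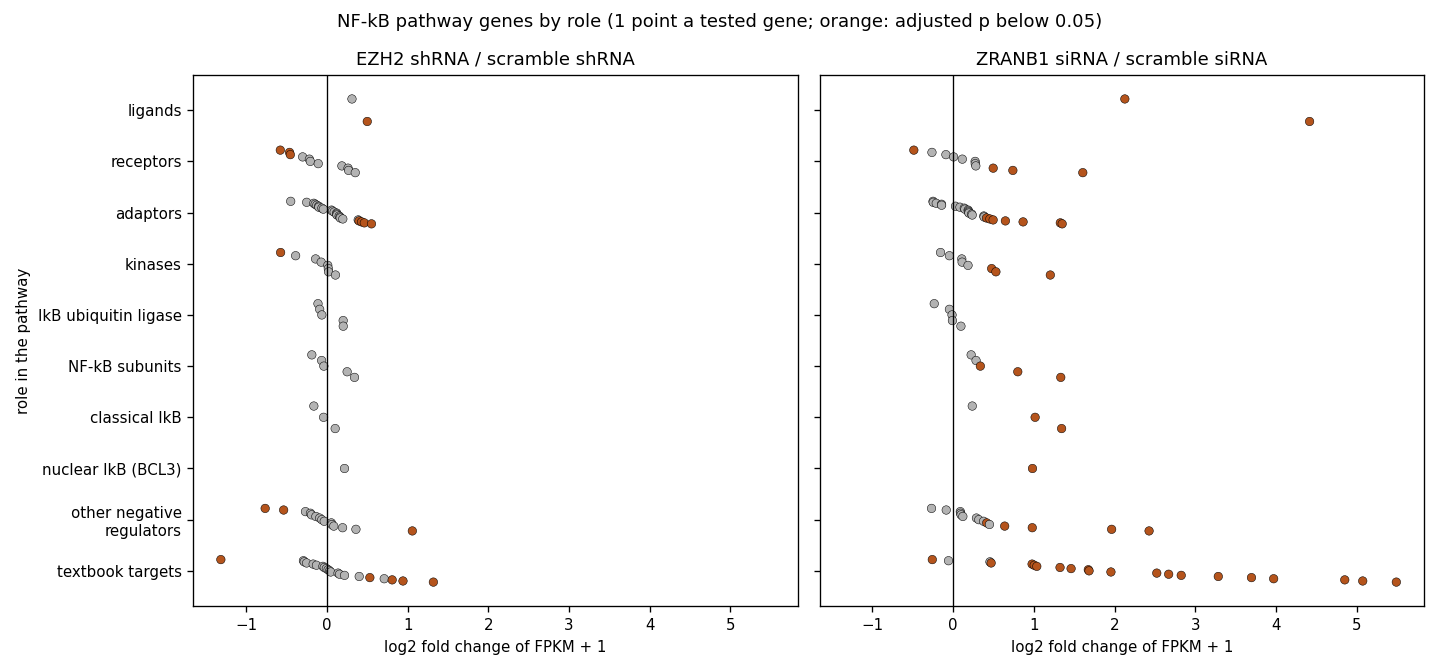
Log2 fold changes of FPKM + 1 for each tested gene of the pathway by role, for EZH2 shRNA against scramble shRNA (left) and ZRANB1 siRNA against scramble siRNA (right), orange where the adjusted p was below 0.05. Points of members and targets lie on both sides of 0 on the left, whereas on the right 18 of 21 targets were called higher.

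Genes with the most similar course over the 4 groups were found for the 5 members that spanned at least 1, by the Euclidean distance between group means of log2(FPKM + 1), each centred on its own mean. This likeness is over 4 group means and is a description. For NFKBIA the 3 nearest genes were LINC00960, TRAF1 and ISM1, at distances of 0.063, 0.063 and 0.098. RELB was nearest to IRAK2 (0.070), SELENBP1 (0.087) and CORO2B (0.090), and NFKB2 to the retinoic acid receptor gene RARA (0.032), the actin-bundling gene PLS3 (0.046) and LINC00623-LINC00869 (0.049). The genes nearest to NFKBIE were SPTLC3 (0.062), C9orf47-S1PR3 (0.077) and RAB31 (0.078). Those nearest to BCL3 were SEMA4B (0.069), NFKBIE (0.080) and ZC3H12C (0.084), so that the nearest genes of BCL3 included another member. Of the nearest genes, TRAF1 and IRAK2 were also in the adaptor list. Some nearest genes were low, and adding 1 FPKM understates their changes. In the scramble shRNA and scramble siRNA groups, LINC00960 averaged 4.25 and 0.0844 FPKM, TRAF1 5.33 and 0.294 FPKM, and SELENBP1 2.16 and 0 FPKM. NFKBIA averaged 89.6 and 18.2 FPKM there, so a short distance does not mean an equal fold change in FPKM.

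The counting's strand setting is not given in the sources used here, and NFKB1 overlaps 3 long noncoding RNA genes, NFKB1-AS1 among them, and RELA overlaps RELA-DT in the RefSeq annotation of GRCh38.p14. In the same annotation REL overlaps the pseudogene RNU4-51P, and BCL3 overlaps the microRNA gene MIR8085. Reads of NFKB1, RELA, REL and BCL3 cannot be told apart from those of these partners where they overlap.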

How the data were processed

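RNA-seq of 12 LM2 libraries in 4 groups of 3 was analysed from FPKM values that the authors deposited for 26006 gene rows. Per the submitters' processing notes, the authors used Cufflinks 2.2.1, Cuffdiff 2.2.1, SAMtools and TopHat2 2.1.1 with the hg19 genome; their options, annotation, strand setting and scaling are not stated here, and sequencing depth is unknown. Where a symbol had several rows (440 symbols), its highest row by mean was used, except that 27 rows with date-like symbols were left apart. The scale of the tests was log2(FPKM + 1), which understates changes of low genes, keeping genes whose 12 values averaged 1 FPKM or more. All 4 groups entered a single limma fit (version 3.58.1, R 4.3.3) with a variance trend. P-values were adjusted by Benjamini-Hochberg over 11929 genes, and an adjusted p below 0.05 is a call. The difference of the EZH2 and ZRANB1 effects was tested in the same fit, and the steps were tested on simulated data. Columns were assigned to groups only. Members and lists were chosen with earlier results of these data known. Named genes were all members, the targeted genes, up to 3 called genes per pathway list and comparison by adjusted p, and the 3 nearest genes per widely varying member. Alternatives were a pseudocount of 0.1, no filter or one at 5 FPKM, the compared groups alone, no variance trend, 1 scaling factor per group, summed rows, and leaving out 1 value. The replicate block was not run. Promoter windows came from RefSeq (GRCh38.p14). Plots used matplotlib 3.10.9 (Python 3.11.15).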

Additional observations from a re-analysis of the deposited data

Results flagged for a closer look

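The effect of the EZH2 shRNA and that of the ZRANB1 siRNA, each against its own scramble control, differed by a test of the difference itself for 5 of 9 members. In each of the 5 the EZH2 effect was below the ZRANB1 effect. The EZH2 effect itself was above 0 for RELB and NFKBIE, with log2 fold changes of 0.34 and 0.10, and was called for 0 of 9 members. Over all tested genes, 10.5% were called and 6.91% called lower in the test of the difference. For NFKBIA the difference of the log2 fold changes, EZH2 minus ZRANB1, was -1.51 with a standard error of 0.084 (adjusted p = 6.51e-07 by limma). It was -0.99 for RELB (adjusted p = 0.0122), -0.91 for NFKBIE (adjusted p = 0.00409), -0.84 for NFKB2 (adjusted p = 0.00822) and -0.52 for NFKB1 (adjusted p = 0.0305). BCL3 had -0.77 and was not called (adjusted p = 0.0623). Each effect was measured against its own control, and delivery and target cannot be told apart in their difference.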

How the results depend on the processing

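No paired analysis was possible because the columns carry no replicate: the values of a group stand in text order within each row. Leaving out 1 value was therefore done after a fixed random order of the values of a group for each gene. Of 36 member results (9 members in 4 tests), 29 kept direction and side of the threshold in each alternative tried. The count of members called with the EZH2 shRNA was 0 in each alternative, although the count over all genes, 765, was 503 with a filter at 5 FPKM, 185 with the compared groups alone, and 407 to 605 without 1 value. A filter at 5 FPKM leaves out REL. NFKB1 lost its call in the ZRANB1 comparison without a filter and without any 1 of the 6 values, and its call of the difference of effects in 10 of 18 alternatives; BCL3 gained that of the difference in 1. Uncalled values near 0 changed sign without 1 value. With the EZH2 shRNA the log2 fold change then ran from -0.14 to 0.033 for NFKB2, from -0.17 to 0.022 for RELA, from -0.22 to 0.098 for NFKBIB, from -0.054 to 0.11 for IKBKE, from -0.18 to 0.037 for IKBKG and from -0.16 to 0.0073 for TNIP1, and the difference of effects from -0.10 to 0.023 for REL. Why these changed was not tested. Depth, and so the counting error of low genes such as REL, is unknown.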
